A study of Mus musculus with 6 samples.

Results

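The Ly6 surface antigen cluster is a row of related genes on mouse chromosome 15, and 8 of them (Ly6g, Ly6c1, Ly6c2, Ly6a, Ly6e, Ly6d, Ly6i and Ly6k) were examined, out of 55487 genes in the table. The genes were chosen by their names and by earlier normalized counts of these same libraries, so their differences between groups are given as a description, with no test. Bulk RNA-seq of 6 libraries was used, 3 labelled PBS and 3 labelled pIpC (polyinosinic-polycytidylic acid, synthetic double-stranded RNA to which cells respond with interferon). In every library the donor cells were CD45.2+ bone marrow leukemia cells of Mx1-Cre Brd9fl/fl mice on the C57BL/6 strain transformed by the fusion oncogene MLL-AF9 (MA9), a driver of acute myeloid leukemia, and 1000 of them were given by tail vein to CD45.1+ recipients. From the day after transplantation, 3 injections of PBS or of pIpC at 20 mg/kg were given on alternate days. GFP+ cells, the cells that carry the MLL-AF9 vector, were taken from the marrow of femora and tibiae 10 days later. Cre was driven by the interferon-inducible Mx1 promoter in both groups, so that pIpC acts on interferon target genes as well as on the floxed Brd9 allele, and no group received pIpC without the floxed allele. The labels describe GFP+ cells and unstranded poly(A) libraries, whereas the methods of the study describe c-Kit+ cells and stranded libraries. The sources also differ on the recipients, which had lethal irradiation with 2 doses of 450 cGy per the design text of the series and a sublethal dose per the methods. No label says whether the 3 libraries of a group came from separate mice, so the spread between them may be technical.

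Ly6 proteins are small cysteine-rich domains that are tethered to the cell surface by a glycosylphosphatidylinositol (GPI) anchor. Several are the antigens by which marrow cells are sorted: Ly6G marks neutrophils, Ly6C marks monocytes and their precursors, and Sca-1, the product of Ly6a, marks hematopoietic stem cells and endothelium. Ly6a, Ly6c and Ly6e are also known interferon target genes.

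The 8 genes spanned chr15:74762056-75159126 of GRCm38, 397071 bp, in the order Ly6d, Ly6k, Ly6e, Ly6i, Ly6a, Ly6c1, Ly6c2 and Ly6g, with 6 genes on the minus strand and Ly6e and Ly6g on the plus strand. Their coding sequences fell into a close group and a distant group. Ly6g, Ly6a, Ly6i, Ly6c1 and Ly6c2 were identical at 78.3% to 97.7% of aligned coding positions, whereas any pair that included Ly6d, Ly6e or Ly6k was identical at 46.8% to 53.8%. The closest pair was Ly6c1 (chr15:75044018-75048830, minus strand) and Ly6c2 (chr15:75108158-75111970, minus strand), with 9 mismatches over 396 coding bases. The first 120 coding bases of each, read from GENCODE release M21 on GRCm38, are shown because the counts of this pair depend on telling them apart, and the capitals mark the bases that differ:
Ly6c1: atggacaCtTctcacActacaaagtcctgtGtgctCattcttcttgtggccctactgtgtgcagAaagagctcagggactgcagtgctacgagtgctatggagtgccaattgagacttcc
Ly6c2: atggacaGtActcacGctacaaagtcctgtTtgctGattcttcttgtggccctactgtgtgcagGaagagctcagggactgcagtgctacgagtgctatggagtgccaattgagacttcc
Of the 9 differing bases 6 lie in the stretch shown, and the sequences are the same over most of what follows. Counted over all annotated transcripts, 2.23% of the stretches of Ly6c1 as long as 1 sequencing read also occur exactly in Ly6c2, and 1.39% of those of Ly6c2 occur in Ly6c1. Ly6g, Ly6a, Ly6e, Ly6d and Ly6i shared no such stretch with any other gene. Ly6k shared 10.0% of its stretches with an overlapping antisense gene, Gm17189, whose normalized count was between 0 and 1.01 in each library. The counts of Ly6c1, Ly6c2 and Ly6k are therefore less certain than the others, since the way shared reads were assigned is described differently in the labels and in the methods.

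The promoter windows below (250 bases before to 50 bases after an annotated start, from RefSeq on GRCm38.p6) are shown because genes lying close together gave unlike values. The table held windows for 3 of the 8 listed genes (Ly6g, Ly6c2 and Ly6c1), for Ly6f, a neighbor, and for Ly6a2, which RefSeq names at the place where GENCODE has the pseudogene I830127L07Rik. Each is written in the direction of transcription. Capitals mark GAGGAAGT, the ETS-type word that PU.1, the product of Spi1, is known to bind, which 3.2% of all 32851 windows hold on either strand, and TTGCNNAA, the core of the C/EBP word, which 10.8% hold:
Ly6g (chr15:75155079-75155378, plus strand): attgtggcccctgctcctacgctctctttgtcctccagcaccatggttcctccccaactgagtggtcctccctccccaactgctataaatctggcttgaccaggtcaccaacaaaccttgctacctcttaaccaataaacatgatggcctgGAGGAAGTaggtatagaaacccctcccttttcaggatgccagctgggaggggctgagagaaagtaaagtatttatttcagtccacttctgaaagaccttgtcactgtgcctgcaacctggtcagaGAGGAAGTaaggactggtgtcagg
Ly6a2 (chr15:75135079-75135378, minus strand): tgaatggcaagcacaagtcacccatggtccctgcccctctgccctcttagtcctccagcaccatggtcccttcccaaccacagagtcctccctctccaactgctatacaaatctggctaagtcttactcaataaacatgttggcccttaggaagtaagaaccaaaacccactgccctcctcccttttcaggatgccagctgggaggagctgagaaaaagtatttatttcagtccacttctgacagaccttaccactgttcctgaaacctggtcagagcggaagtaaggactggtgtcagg
Ly6c2 (chr15:75111922-75112221, minus strand): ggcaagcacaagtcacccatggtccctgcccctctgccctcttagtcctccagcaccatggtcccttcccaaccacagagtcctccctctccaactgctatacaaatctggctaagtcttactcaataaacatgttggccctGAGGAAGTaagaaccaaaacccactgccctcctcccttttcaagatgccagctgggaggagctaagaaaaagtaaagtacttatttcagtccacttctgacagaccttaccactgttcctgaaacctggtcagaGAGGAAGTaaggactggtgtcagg
Ly6c1 (chr15:75048614-75048913, minus strand): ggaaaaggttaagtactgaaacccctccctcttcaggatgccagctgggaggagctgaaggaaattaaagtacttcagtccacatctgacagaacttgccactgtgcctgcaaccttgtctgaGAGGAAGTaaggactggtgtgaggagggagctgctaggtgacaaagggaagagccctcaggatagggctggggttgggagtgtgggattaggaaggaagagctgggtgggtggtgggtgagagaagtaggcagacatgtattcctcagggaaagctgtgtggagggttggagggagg
Ly6f (chr15:75268171-75268470, plus strand): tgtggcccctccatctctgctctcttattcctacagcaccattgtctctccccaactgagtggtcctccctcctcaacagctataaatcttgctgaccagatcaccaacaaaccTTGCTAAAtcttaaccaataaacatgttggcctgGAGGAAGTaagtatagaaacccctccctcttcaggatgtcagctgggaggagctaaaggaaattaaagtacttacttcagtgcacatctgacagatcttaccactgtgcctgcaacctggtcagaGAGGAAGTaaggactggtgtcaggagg
GAGGAAGT occurred 2 times in the Ly6g window, at 99 bases before and 26 bases after the start, and 2 times in the Ly6c2 window, at 108 bases before and 26 after. The Ly6c1 window held it once, and a second annotated start of Ly6c1 had no copy in its window. The Ly6a2 window had no intact copy and 2 stretches that were 1 letter away from it. At 103 bases before the start the stretch carried the substitution G1T, and at 26 bases after the start it carried A2C, with positions counted from 1 at the first base of GAGGAAGT. Ly6f held 2 intact copies and 1 C/EBP core. A second annotated start of Ly6g, whose window overlaps the one shown, had 1 intact copy and 1 C/EBP core in its window. No window shown held TTCNNNGAA, the STAT word found in 8.3% of windows, or the core of the interferon-stimulated response element, found in 3.44%, on either strand. These are matches of letters only, and the absence of a word says nothing of sequence outside the window.

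Brd9, the targeted gene, was not lower in the libraries labelled pIpC. Normalized counts of 1927, 1946 and 1632 (PBS replicates 1 to 3) stood against 2036, 2263 and 2011 (pIpC replicates 1 to 3), a log2 difference of 0.20 (SE 0.13; limma, adjusted p = 0.259; two-sided exact permutation p = 0.1, the smallest that 3 against 3 allows). The counts cover the whole gene and do not resolve the floxed exons. The groups are therefore called the libraries labelled PBS and the libraries labelled pIpC, or PBS and pIpC libraries for short. The PBS libraries held 19277439 to 22378154 reads on genes and the pIpC libraries 22348517 to 23586722, so that 1 read was worth about 1 normalized count. PBS replicate 3 stood apart from the other PBS libraries, with a chi-square statistic per gene of 171 to 194 against them, compared with 6.30 between PBS replicates 1 and 2 and 7.93 to 16.8 among pIpC libraries. The groups differed broadly: limma on log2(normalized count + 1) called 45.3% of 15020 genes tested at an adjusted p under 0.1, with 25% higher and 20.4% lower in pIpC libraries. Because RNA was taken from bulk cells, fewer cells of a type and less RNA per cell cannot be told apart in any value given here.

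Reads of the 8 Ly6 genes together made up 0.172% to 0.197% of all reads in PBS libraries and 0.189% to 0.214% in pIpC libraries, ranges that overlapped. What differed was the make-up of these reads. Ly6c2 took 54.7% to 64.2% of the normalized counts of the 8 genes in PBS libraries and 65.1% to 67.9% in pIpC libraries. Ly6e took 34.3% to 44.1% in PBS libraries and 20.4% to 25.4% in pIpC libraries. Ly6g moved from 0.00773% to 0.0816% in PBS libraries to 8.20% to 10.5% in pIpC libraries. Ly6c1 took 0.792% to 1.29% over all libraries, and the other 4 genes together took 0.0284% to 0.463%. In 6 of the 8 genes each pIpC library lay above each PBS library, where 30.5% of all genes tested did so, and the groups did not overlap in either direction in 56.8% of genes tested and 38.7% of all genes with a read. All but Ly6i passed the filter on low counts, a mean of 10 over the 6 libraries, and Ly6a and Ly6d passed it only through the pIpC group, since their PBS means were 4.89 and 2.98. The median log2 difference over all 8, with the untested Ly6i included, was 1.11. Over the 7 that were tested it was 0.48, against 0.01 over all genes tested. The median over all 8 moved with the pseudocount, to 0.46 with 10 and 1.80 with 0.1 in place of 1.

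**Figure D1:**
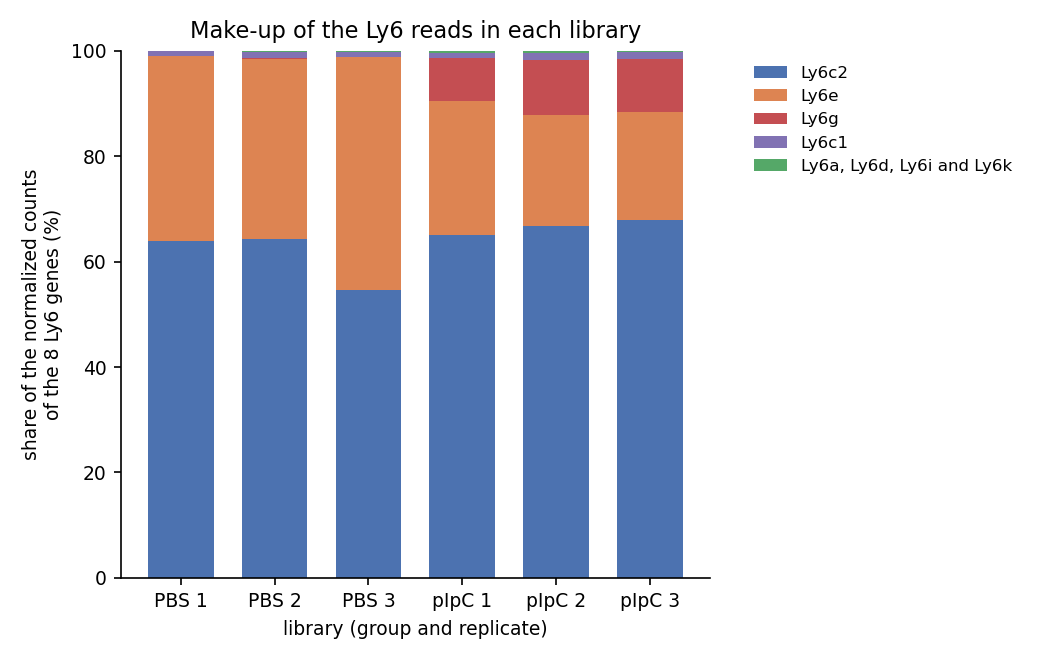
Share of the normalized counts of the 8 Ly6 genes (y axis, percent) taken by Ly6c2, Ly6e, Ly6g, Ly6c1 and the remaining 4 genes in each library (x axis, group and replicate). Ly6g is visible as a band of 8.20% to 10.5% in the 3 pIpC libraries and is under 0.1% in the PBS libraries.

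Ly6g, the neutrophil antigen (chr15:75155240-75159126, plus strand), had the largest difference of the 8. Normalized counts were 2.60, 27.3 and 28.3 in PBS replicates 1 to 3 against 4063, 4525 and 4357 in pIpC replicates 1 to 3. PBS replicate 1 rested on very few reads, and no pIpC library came near a PBS library. The group means were 19.4 ± 14.6 and 4315 ± 234 (SD, n = 3), a ratio of 222 and a log2 difference of 8.23 (SE 0.78). Within the pIpC group the highest library exceeded the lowest by 1.11 times for Ly6g and 1.12 times for Ly6c2, the narrowest spreads of the 8 genes. On the scale of normalized counts per kilobase of the longest coding transcript, Ly6g was at 20.6 ± 15.5 in PBS libraries, behind Ly6c2, Ly6e, Ly6c1 and Ly6k, and at 4586 ± 248 in pIpC libraries, behind Ly6c2 alone.

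Ly6a2, an unlisted neighbor, was seen only after the values of the others were known, and it is described here because it lies between Ly6c2 and Ly6g. GENCODE annotates it as I830127L07Rik, a transcribed unprocessed pseudogene at chr15:75131377-75135128 on the minus strand, and its start is 20.1 kb from that of Ly6g and 23.2 kb from that of Ly6c2. Its normalized counts were 118, 173 and 144 in PBS replicates 1 to 3. In pIpC replicates 1 to 3 they were 13171, 13312 and 13602. The groups did not overlap, and the ratio of means was 92.3, with a log2 difference of 6.54 (SE 0.16; limma, adjusted p = 1.03e-05). Per kilobase of its longest transcript the pIpC level was 18304 ± 301, above the 4586 ± 248 of Ly6g and below the 36746 ± 2195 of Ly6c2. Its transcript shared no read-long stretch with another gene, and it was identical to the longest Ly6c2 transcript at 71.5% and to that of Ly6g at 63.3% of aligned positions. In pIpC libraries its normalized count was 2.94 to 3.24 times that of Ly6g. Its promoter window, printed above, held no intact GAGGAAGT.

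Between the groups, neutrophil genes moved with Ly6g. All 12 genes of a neutrophil marker list were higher in pIpC libraries, and their summed normalized counts were 25524 to 50728 in PBS libraries and 2053320 to 2120540 in pIpC libraries. Ltf, the granule protein lactoferrin, rose from 1889 ± 899 to 322925 ± 13632 (SD, n = 3; log2 difference 7.51, SE 0.31; limma, adjusted p = 1.85e-05). S100a8, a subunit of calprotectin, rose from 5705 ± 3728 to 300156 ± 14043 (log2 difference 5.93), and Csf3r, the receptor for G-CSF, rose least, by 0.94. PBS replicate 1 had the lowest summed level of these markers and the lowest Ly6g. Among the pIpC libraries the order was reversed. Replicate 1 had the highest sum and the lowest Ly6g (4063), and replicate 2 the lowest sum and the highest Ly6g (4525). The part of the neutrophil markers in the Ly6g value was not tested.

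**Figure D2:**
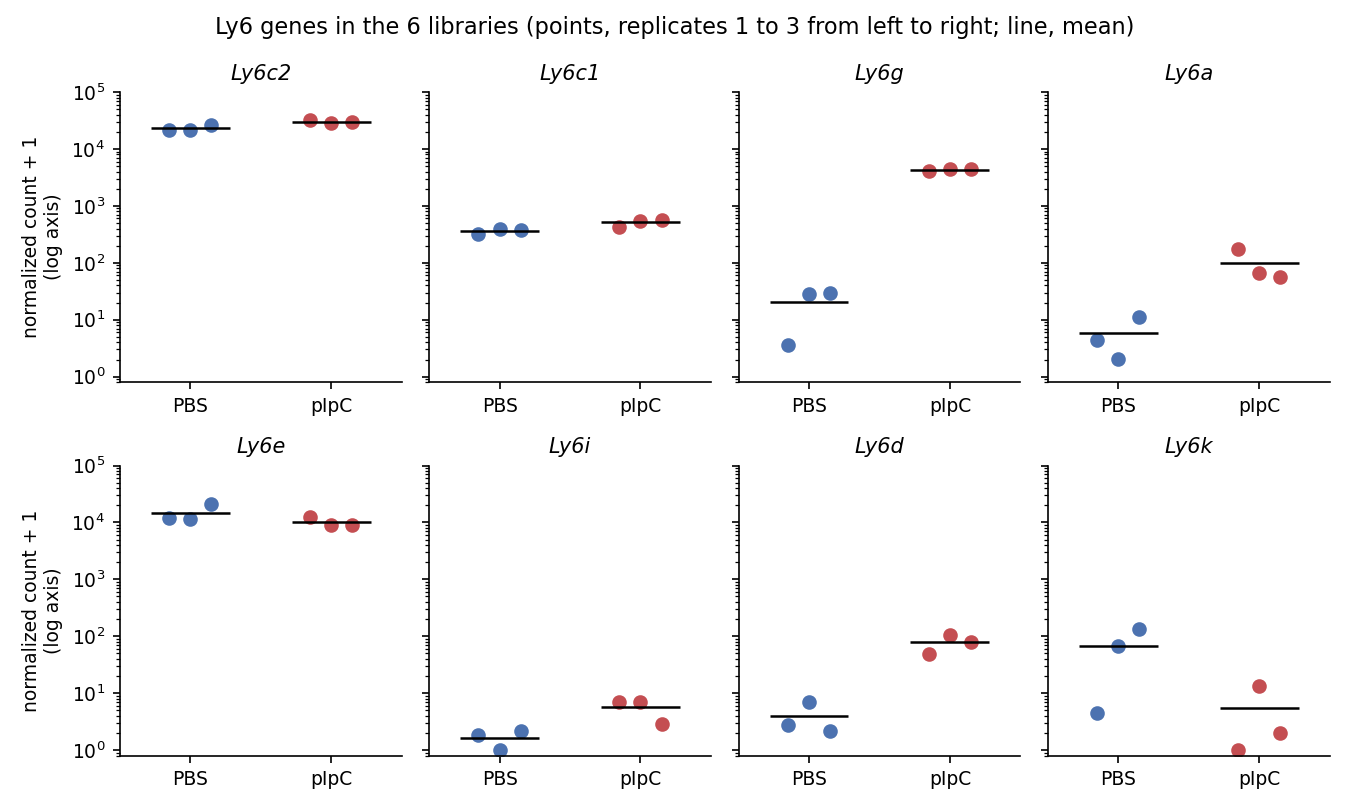
Normalized count + 1 of each Ly6 gene (y axis, log scale) in the 3 PBS and the 3 pIpC libraries, with points for libraries and a line for the group mean. Ly6g, Ly6a and Ly6d differ by more than 10-fold between group means, Ly6c2 and Ly6c1 by 1.32-fold and 1.40-fold, and the points of Ly6e and Ly6k overlap.

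Ly6c2 and Ly6c1 encode the Ly6C antigen of monocytes and their precursors. Ly6c2 was the most abundant of the 8 genes in both groups, with normalized counts of 21467, 21511 and 25870 in PBS replicates 1 to 3 against 32250, 28840 and 29525 in pIpC replicates 1 to 3. The lowest pIpC library lay above the highest PBS library, but PBS replicate 3 was closer to the pIpC libraries than the other PBS libraries were. The ratio of means was 1.32 and the log2 difference 0.40 (SE 0.16). Ly6c1 gave 321, 396 and 375 in PBS libraries and 432, 535 and 561 in pIpC libraries, a log2 difference of 0.48 (SE 0.17), again with no overlap and with a gap smaller than the spread within the pIpC group. Ly6c1 counts were 1.45% to 1.84% of those of Ly6c2 in PBS libraries and 1.34% to 1.90% in pIpC libraries. This share overlapped between groups, and what part of the Ly6c1 count came from reads of Ly6c2, given the stretches that the pair shares, was not tested.

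The monocyte markers did not move one way with Ly6c2. Of 12 genes, 6 rose and 4 fell, and the summed normalized counts were 9179 to 12346 in PBS libraries and 14557 to 16557 in pIpC libraries. The rise of the sum lay in 1 gene, F13a1, a coagulation factor subunit of monocytes. F13a1 rose from 204 ± 65.2 to 5815 ± 623 (SD, n = 3, log2 difference 4.88, SE 0.26, limma, adjusted p = 3.93e-05). Ccr2, the receptor for the monocyte chemoattractant Ccl2, rose by 0.82 (SE 0.21; adjusted p = 0.0237), whereas Ms4a4c fell by 1.41 on the log2 scale (SE 0.25; adjusted p = 0.00471). Ly6g as a percentage of Ly6c2 was 0.0121% to 0.127% in PBS libraries and 12.6% to 15.7% in pIpC libraries.

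Ly6a encodes Sca-1 (chr15:74994877-74998031, minus strand). It gave 3.46, 1.01 and 10.2 normalized counts in PBS replicates 1 to 3, from 14 reads in all, and 177, 66.4 and 55.1 in pIpC replicates 1 to 3. Each pIpC library was above each PBS library, and pIpC replicate 1 was far above the other pIpC libraries. The ratio of summed reads, adjusted for library size, was 21.4 with a 95% interval of 12.6 to 39.7 that covers counting error only, and the log2 difference was 4.24 (SE 0.73). The spread between pIpC libraries, 3.21 times from lowest to highest, was wider than for Ly6g.

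Ly6e, a broadly expressed interferon target (chr15:74955051-74959905, plus strand), had a lower mean in pIpC libraries. Normalized counts were 11763, 11477 and 20876 in PBS replicates 1 to 3 against 12567, 9134 and 8888 in pIpC replicates 1 to 3. PBS replicate 3 was the highest of the 6 libraries, pIpC replicate 1 was second, and the groups overlapped. The log2 difference was -0.49 (SE 0.28), and it was -0.21 without PBS replicate 3 and -0.65 without pIpC replicate 1.

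A list of 30 interferon-stimulated genes was read beside these genes. Of the 30, 13 rose and 2 fell, with a median log2 difference of 1.06, where 25% of all genes tested rose and 20.4% fell. Ifi44 rose most, from 1.51 ± 2.61 to 33.0 ± 28.8 (SD, n = 3; log2 difference 3.86, SE 0.95; limma, adjusted p = 0.0191), and Oas1a, a sensor of double-stranded RNA, fell by 1.34 (SE 0.47; adjusted p = 0.0665), a call lost without pIpC replicate 2 (adjusted p = 0.167) or 3 (adjusted p = 0.191). Summed normalized counts of the list were 9746, 9699 and 12746 in PBS replicates 1 to 3 against 19619, 12951 and 11820 in pIpC replicates 1 to 3. PBS replicate 3 was highest within its group for the list, for Ly6a, for Ly6e and for Ly6c2, and pIpC replicate 1 was highest within its group for the same 4 measures. Ly6c1 did not follow this order. Its highest PBS library was replicate 2 (396), and its lowest pIpC library was replicate 1 (432). Between the groups the order differed: the summed list and Ly6a were highest in pIpC replicate 1, whereas Ly6e was highest in PBS replicate 3. With 3 libraries a group no relation across libraries was tested.

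**Figure D3:**
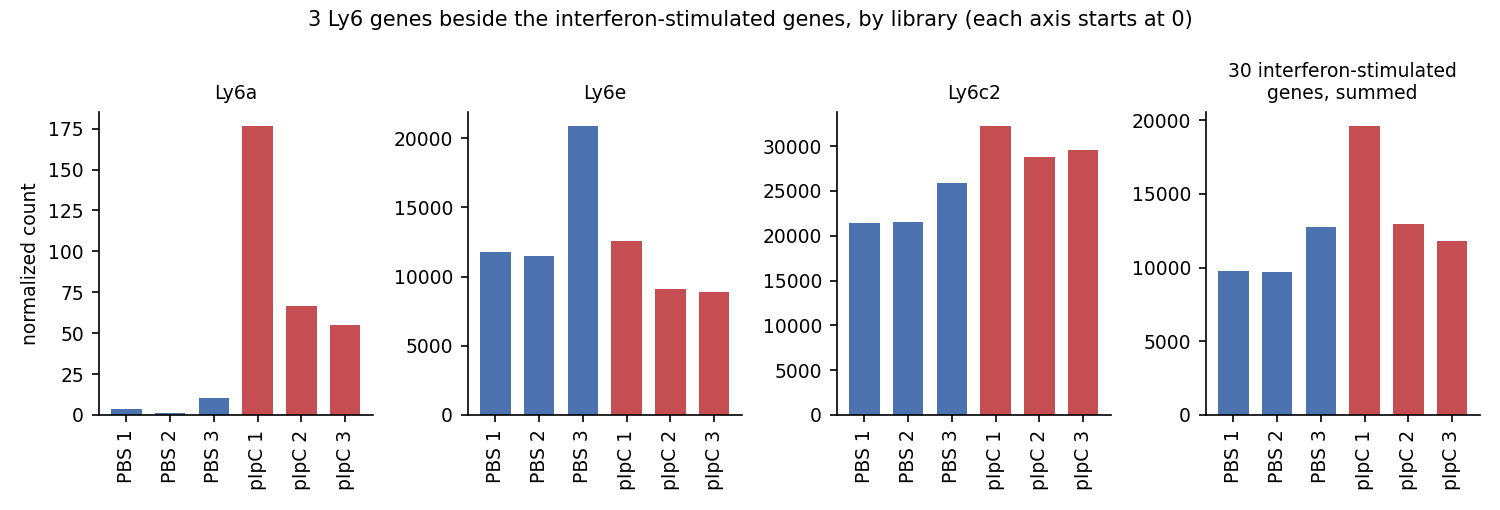
Normalized counts (y axes, each from 0) of Ly6a, Ly6e and Ly6c2 and the summed normalized counts of 30 interferon-stimulated genes in each library (x axis; blue, PBS; red, pIpC). In all 4 panels PBS replicate 3 is the highest PBS library and pIpC replicate 1 the highest pIpC library. Ly6c1, which is not drawn, did not follow this order.

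Ly6d, an antigen of early B-lineage and plasmacytoid dendritic cell precursors (chr15:74762056-74763620, minus strand), gave 1.73, 6.07 and 1.13 normalized counts in PBS replicates 1 to 3, 9 reads in all, and 46.9, 104 and 79.3 in pIpC replicates 1 to 3. The groups were far apart, with a ratio of summed reads of 25.8 (95% interval 13.3 to 57.1, counting error only) and a log2 difference of 4.42 (SE 0.56). Markers of both lineages moved with it. All 12 B cell markers rose, and their summed counts were 139 to 306 in PBS libraries and 1515 to 2852 in pIpC libraries. Ms4a1 was at 0 in each PBS library, and Cd79b had the smallest log2 difference (1.25). Pax5 had 1 read in the PBS and 658 in the pIpC libraries, a ratio of 661 with a 95% interval of 118 to 26137 that covers counting error only. All 6 plasmacytoid dendritic cell markers tested rose, with Spib highest (5.75) and Ccr9 lowest (2.05). The sum over all 7 listed was 74.7 to 159 in PBS libraries and 1230 to 1435 in pIpC libraries. Of the B cell markers all but Cd79a and Cd79b had PBS means under 10. So did the tested plasmacytoid dendritic cell markers other than Tcf4 and Tlr7. Like Ly6d, these passed the filter on low counts only through the pIpC group, which fixed the direction of their difference. The part of both marker lists in the Ly6d value was not tested.

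Ly6i, a close relative of Ly6a with 86.4% coding identity, was near the limit of detection. It had 2 reads in the 3 PBS libraries and 14 in the 3 pIpC libraries, with normalized counts of 0.87, 0 and 1.13 and of 5.99, 6.13 and 1.93. Its mean fell below 10, so it was not tested. The ratio was 7.03 with a 95% interval of 1.61 to 63.7 that covers counting error only. No sequence as long as a read was shared by Ly6i and Ly6a.

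Ly6k, which in the testis encodes a partner of Tex101 needed for sperm function (chr15:74796874-74799986, minus strand), varied more within the PBS group than between groups. Normalized counts were 3.46, 65.8 and 131 in PBS replicates 1 to 3 against 0, 12.3 and 0.97 in pIpC replicates 1 to 3. PBS replicate 1 lay below pIpC replicate 2, so the groups overlapped. The log2 difference was -3.52 (SE 1.47), and it ran from -4.99 without PBS replicate 1 to -2.54 without PBS replicate 3.

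Per kilobase of the longest coding transcript, the order of mean normalized counts in PBS libraries was Ly6c2 (27919 ± 3077), Ly6e (6447 ± 2344), Ly6c1 (431 ± 45.7), Ly6k (84.5 ± 80.8), Ly6g (20.6 ± 15.5), Ly6a (5.12 ± 4.97), Ly6d (4.0 ± 3.62) and Ly6i (0.576 ± 0.512; SD, n = 3). From Ly6k to Ly6d the ranges of neighbors in this order overlapped. In pIpC libraries the order was Ly6c2 (36746 ± 2195), Ly6g (4586 ± 248), Ly6e (4470 ± 902), Ly6c1 (604 ± 80.7), Ly6a (104 ± 70.3), Ly6d (103 ± 38.6), Ly6k (5.57 ± 8.62) and Ly6i (4.05 ± 2.06). Ly6g and Ly6e overlapped in their ranges, as did Ly6a and Ly6d, and Ly6k and Ly6i. With the length of all exons in place of the longest coding transcript, Ly6g (4581) lay above Ly6e (2695) in pIpC libraries with no overlap.

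Between Psca and Gpihbp1, the outermost Ly6 genes of the region, 50 annotated genes lie in 884.6 kb, 18 of them without a read in any library. Of the 14 that were tested, 7 were not among the listed genes, and all are shown in the plot of differences by position. Ly6a2 had the largest difference of these 7, and 9030619P08Rik, another transcribed pseudogene, rose from 2.47 ± 1.87 to 104 ± 22.7 (SD, n = 3; log2 difference 5.05, SE 0.46; limma, adjusted p = 0.000272). Gm28068 and Gm5960 also rose, by 3.31 and 2.25, and Gm39556, a long noncoding RNA gene beside Ly6e, fell by 1.24 on the log2 scale. With PBS means of 2.47 and 3.85, 9030619P08Rik and Gm28068 passed the filter on low counts only through the pIpC group. Of 13 further chromosome 15 Ly6 genes on a list, Lynx1 alone reached a mean of 10. Lynx1, a modulator of nicotinic acetylcholine receptors, fell from 40.4 ± 12.1 to 14.3 ± 4.13 (SD, n = 3; log2 difference -1.44, SE 0.35; limma, adjusted p = 0.0189). Ly6h, Ly6l, Lypd2, Slurp2 and Psca had no read in any library. Ly6f, whose window holds 2 intact GAGGAAGT copies, had a single read, in PBS replicate 1.

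**Figure D4:**
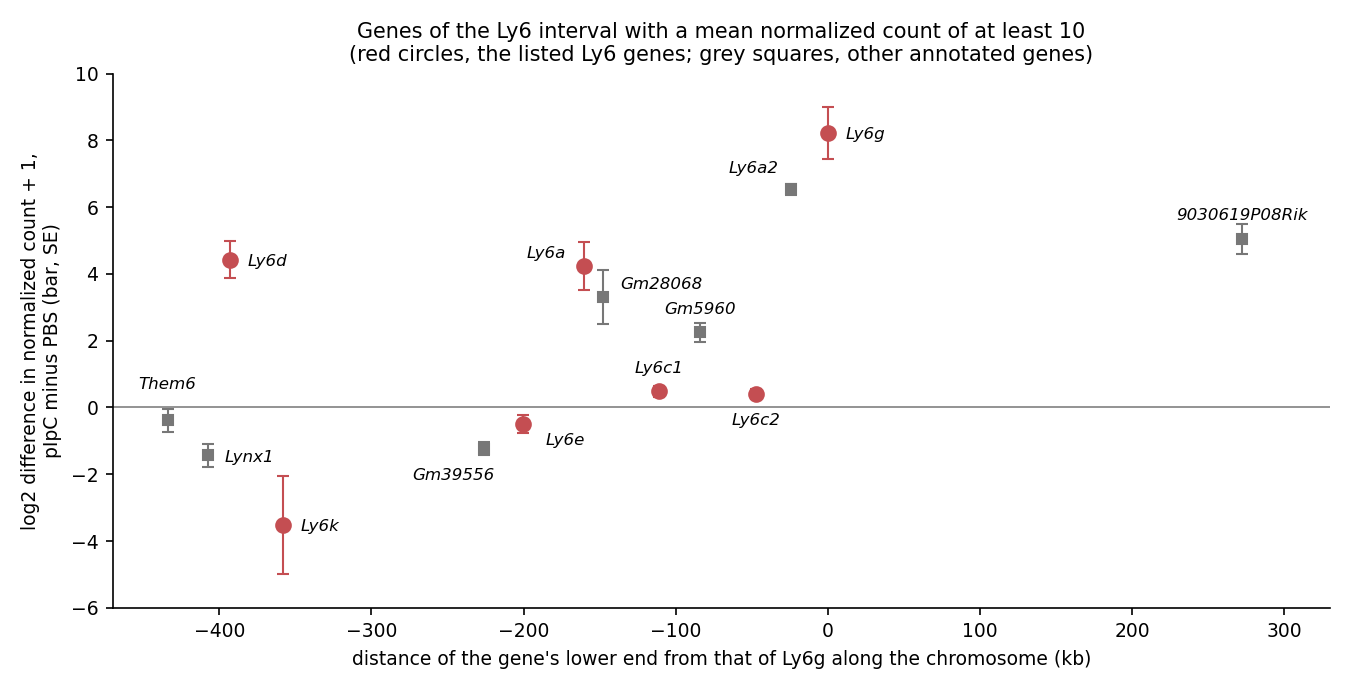
Log2 difference in normalized count + 1, pIpC minus PBS (y axis, bars show the SE), of the tested genes between Psca and Gpihbp1 against distance from Ly6g along the chromosome (x axis, kb). Ly6g and Ly6a2 stand highest at 8.23 and 6.54, while Ly6c2, the next listed gene along, is at 0.40.

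Genes near the cluster that were in no Ly6 list moved in both directions. They include D730001G18Rik, named Ly6g6g in RefSeq, which was not tested. Of 23 protein-coding genes within or flanking the span, 14 were tested, 1 rose and 5 fell, with a median log2 difference of -0.30, beside the 45.3% called over all genes tested. Slc45a4, a solute carrier, rose from 284 ± 15.6 to 706 ± 38.5 (SD, n = 3; log2 difference 1.31, SE 0.13; limma, adjusted p = 0.000377). Adgrb1, an adhesion G protein-coupled receptor, fell from 398 ± 91.3 to 2.71 ± 3.13 (log2 difference -7.14, SE 0.69; adjusted p = 0.000338), and the other falls were between 0.80 and 3.24.

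Ly6/uPAR genes on other chromosomes, which share the domain, were read as a further list of 20. Of these, 5 were tested, 3 rose and 1 fell. Cd177, a neutrophil surface antigen, gave 2927, 2689 and 3028 in PBS replicates 1 to 3 against 43351, 51690 and 50818 in pIpC replicates 1 to 3. The groups were far apart, with a log2 difference of 4.07 (SE 0.14; limma, adjusted p = 1.68e-05). Plaur, the urokinase receptor, rose from 847 ± 31.3 to 4984 ± 370 (SD, n = 3; log2 difference 2.55, SE 0.11; adjusted p = 2.3e-05). Ly6g5b rose from 35.1 ± 10.7 to 200 ± 20.8 (log2 difference 2.51, SE 0.27; adjusted p = 0.000515). Tex101, the germ cell partner of Ly6k, fell from 69.7 ± 14.1 to 2.67 ± 2.56 (log2 difference -4.60, SE 0.68; adjusted p = 0.00229). Cd59a, an inhibitor of complement, had a log2 difference of -0.78 (SE 0.36; adjusted p = 0.135). Ly6g6f was below the filter, with 0 reads in PBS libraries and 10.6 to 14 normalized counts in pIpC libraries. Ly6g5c, Lypd1, Lypd4 and Lypd8 had no read.

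**Figure D5:**
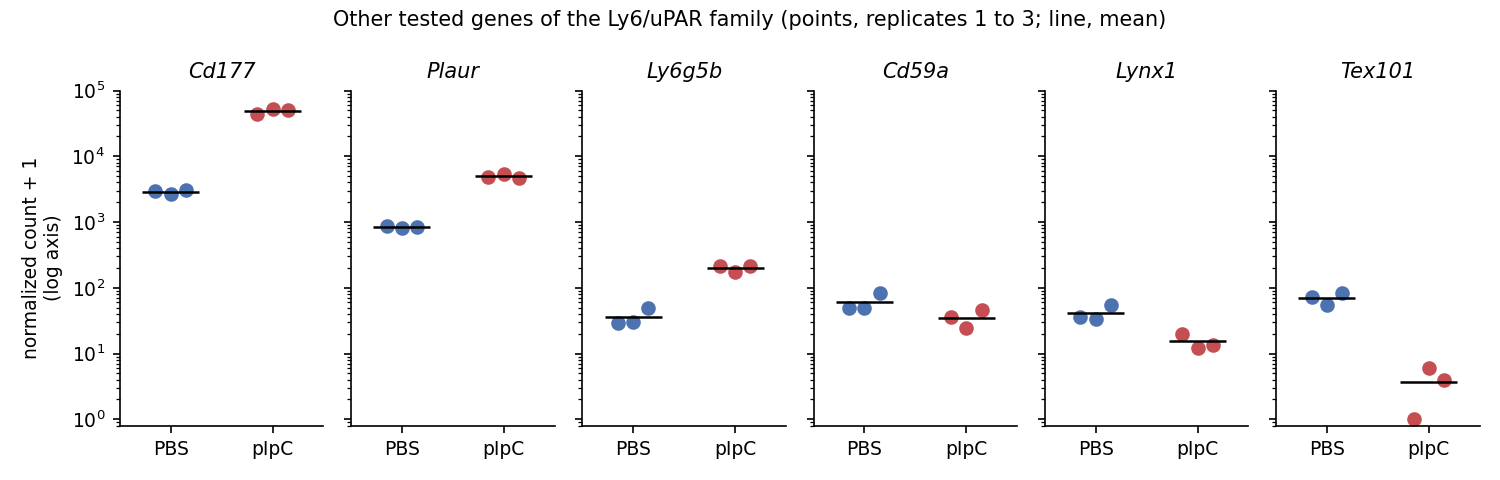
Normalized count + 1 (y axis, log scale) of the tested Ly6/uPAR genes outside the 8, with points for libraries and a line for the mean of the 3 PBS and the 3 pIpC libraries. Cd177, Plaur and Ly6g5b are higher and Lynx1 and Tex101 lower in pIpC libraries with no overlap, and Cd59a did not pass the threshold.

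Of 29 listed genes that build and attach the GPI anchor, 28 were tested, 3 rose, 5 fell and 20 did not pass the threshold, beside the 45.3% called over all genes tested. The median log2 difference was -0.24. The count moved with single libraries, since 17 were called without PBS replicate 3, and 4, 3 and 5 without pIpC replicates 1, 2 and 3. Calls over all genes tested moved the same way, from 6808 to 9783, 5060, 4650 and 4750 in these settings. The summed normalized counts overlapped between groups, at 20543 to 22336 in PBS libraries and 20600 to 21559 in pIpC libraries. Mppe1, which trims the anchor after attachment, rose from 628 ± 57.8 to 2152 ± 115 (SD, n = 3; log2 difference 1.78, SE 0.12; limma, adjusted p = 9.33e-05). Pigf, which takes part in adding ethanolamine phosphate to the anchor, fell from 118 ± 28.8 to 60.2 ± 10.4 (log2 difference -0.95, SE 0.27; adjusted p = 0.0318), a call lost without pIpC replicate 3 (adjusted p = 0.121).

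Markers of other cells also moved with the groups, and their part in the Ly6 values was not tested. The selection of GFP+ cells named in the labels is meant to leave out cells without the MLL-AF9 vector, and that of c-Kit+ cells named in the methods is meant to leave out most mature cells. All 12 erythroid markers rose, from a sum of 21.6 to 37.3 to a sum of 4401 to 6061, and Slc4a1 and Rhag were among those at 0 in PBS libraries. Hba-a1 rose by 8.42, Hbb-bs most (8.52) and Alas2 least (3.26). All 9 T and NK cell markers tested rose, with Cd4 lowest (2.19). The sum over all 12 listed was 196 to 330 in PBS libraries and 4078 to 4658 in pIpC libraries. Nkg7 alone made up most of it, with 162, 167 and 301 in PBS and 4312, 3702 and 4056 in pIpC replicates 1 to 3. Most of the T and NK cell markers, most of the erythroid markers and some of the plasma cell, endothelial and stem cell markers had PBS means under 10. Such genes passed the filter only through the pIpC group, so that the direction of their difference was fixed by it. Ncr1 had 3 reads in the PBS and 144 in the pIpC libraries, a ratio of 48.2 (95% interval 16.2 to 236, counting error only), while Cd3e was below the filter (0.963 ± 1.02 and 7.95 ± 5.28). Of 6 plasma cell markers tested 5 rose, Jchain most (6.09), and Xbp1 was not called (0.10). Beside Ly6a, all 10 endothelial markers tested rose, with Vwf highest (4.21) and Plvap lowest (1.13). The sum over all 12 listed was 154 to 188 in PBS libraries and 900 to 1090 in pIpC libraries. Cdh5, at 2.15, was called only narrowly (limma, adjusted p = 0.0931, and edgeR, adjusted p = 0.132). Of 8 stem and progenitor markers tested, 5 rose and 2 fell, Cd34 most (-1.40). Of 12 genes that MLL-AF9 is known to sustain 11 fell, Hoxa10 most (-6.38), with Hoxa9 at -4.32 and Meis1 at -4.01, and Mef2c rose by 7.72.

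Profiles closest to each abundant Ly6 gene were ranked by the root mean square difference of centred log2 values over the 6 libraries, among 10486 genes with a mean of at least 100. Nearest to Ly6g were Stk39 (0.454), Ank1 (0.656) and Aff3 (0.658), and no gene lay within 0.2. For Ly6c2 the nearest were Apba3 (0.033), Atp6ap2 (0.034) and Got2 (0.038), with 1075 genes within 0.2. Ly6c1 was nearest to Slc2a4rg-ps (0.074), Scamp2 (0.093) and Slc25a38 (0.094), with 510 genes within 0.2. Ly6e was nearest to Mrpl42 (0.070), Decr1 (0.071) and BC003965 (0.073), with 753 within 0.2. The PBS values behind the Ly6g profile came from 55 reads.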

How the data were processed

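RNA-seq values came from 3 PBS and 3 pIpC libraries, in a table in which the authors deposited gene counts scaled by 1 size factor per library, a signal per gene. The submitters' processing notes name HISAT2 2.2.1, SAMtools, featureCounts, Subread and edgeR on GRCm38, whereas the methods of the study name nf-core/rnaseq 3.0 and DESeq2 1.26.0. Divided by the lowest value above 0 in its library, 100% of values gave whole numbers (tolerance 0.1 read), so reads were recovered. Symbols, positions and transcripts were taken from GENCODE M21 and matched 55227 of 55487 genes.

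The log2(normalized count + 1) of 15020 genes (mean 10 or more) was tested with limma-trend 3.58.1 in R 4.3.3, which understates changes of low genes, and calls had an adjusted p (Benjamini-Hochberg) under 0.1. A gene with a mean under 10 in either group could pass this filter only through a higher mean in the other. The direction of its difference was then set by the filter. The 8 genes and all gene lists were chosen with earlier results of these data known. Beside the listed Ly6 genes and Brd9, the genes named were, in each list, the highest and lowest fold change and set markers, and the 3 nearest profiles. Tested genes of each Ly6 family list and other genes of the interval were named after their values were seen. For Ly6i, Ly6a, Ly6d, Pax5 and Ncr1, which had 1 to 14 reads in the PBS group, the ratio of summed reads was given with its exact counting interval. Alternatives were pseudocounts of 0.1 and 10, no filter or a mean of 50, quantile normalization, each library left out, a replicate block, no trend, edgeR 4.0.16 and DESeq2 1.42.0 on recovered reads, and an adjusted p under 0.05. The scripts were tested on simulated data. Coding identity was taken over global alignments. Brd9 alleles and values per exon were not analysed here. Some markers that the naming rule covers are not reported here.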

Additional observations from a re-analysis of the deposited data

How the results depend on the processing

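Each of the 8 Ly6 genes kept its direction in all alternatives run. The log2 differences ran from 7.23 to 8.74 for Ly6g, 0.39 to 0.60 for Ly6c1, 0.35 to 0.63 for Ly6c2, 2.76 to 4.87 for Ly6a, -0.65 to -0.21 for Ly6e, 2.70 to 4.94 for Ly6d, 0.45 to 3.11 for Ly6i and -4.99 to -1.96 for Ly6k. The upper end of Ly6c2 came from quantile normalization, which moved the median of all genes from 0.01 to -0.10, and the lower ends of Ly6a, Ly6d and Ly6i came from a pseudocount of 10. The median over the 8 genes was 1.11 in the main test, 1.80 and 0.46 with pseudocounts of 0.1 and 10, 1.52 with edgeR and 1.65 with DESeq2, and ran from 0.97 to 1.29 when a library was left out.

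Genes called numbered 6808, and 4650 to 9783 with a library left out, most without PBS replicate 3. Lynx1 was not tested at a mean of at least 50, which left 0 further chromosome 15 Ly6 genes called. With no filter, 7 Ly6/uPAR genes on other chromosomes were called in place of 4. GPI anchor genes called were 8 in the main test, and 3 to 17 with a library left out. Called genes of the other lists ranged from 6 to 8 for the flanking genes and from 13 to 20 for the interferon-stimulated genes (20 without PBS replicate 3). Cdh5 lost its call in 10 alternatives, and the cause was not tested.

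The replicate numbers did not pair the libraries, since deviations of same-numbered libraries correlated at -0.117, 0.143 and 0.041. With a replicate block 6095 genes and 4 GPI anchor genes were called. Depth limits Ly6i, Ly6a, Ly6d and Ly6k, which had 2, 14, 9 and 185 reads in the PBS group.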
